A study of Mus musculus with 6 samples.

Results

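The genes described here are 9 genes of leukocyte adhesion through beta-2 integrins, taken by their symbols from the 42256 genes of the count table. They are the integrin chains Itgb2, Itgal and Itgam, the ligands Icam1, Icam2 and Vcam1, the selectin ligand Selplg, and the integrin activators Fermt3 and Tln1. CD11c (Itgax) was left out by the rule and serves as a comparator. All 9 had enough counts to be among the 12862 genes tested. They were measured by RNA sequencing of macrophages grown from the bone marrow of adult male mice on a mixed 129S1/Sv x C57BL/6 background. The genotypes were CDH11+/+ (wild type, WT) and CDH11-/- (knockout, KO, without the adhesion protein cadherin-11), with 3 libraries each. All cultures spent 7 days in medium with 20% L929-conditioned medium, a source of the macrophage growth factor CSF1, and 10% serum, and none was treated further. How the Cdh11 allele was disrupted is not given in the sources used here. The series text speaks of 3 WT and 4 KO animals, while the sample labels name no animal, so each p-value rests on library-to-library spread, which may be technical.

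Beta-2 integrins are pairs of a CD11 alpha chain with the shared beta chain CD18, the product of Itgb2. Leukocytes use them to hold on to vessel walls, to other cells and to opsonised particles. They rest in a bent state until talin and kindlin-3 bind the tail of the beta chain from inside the cell, after which they bind ligands such as ICAM-1. Macrophages carry mainly CD11b/CD18, also called Mac-1 or complement receptor 3, whereas CD11a/CD18, called LFA-1, is best known from lymphocytes and monocytes.

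Levels are given as CPM, counts scaled to a common library size, and compared between genes only as TPM, which also divides by gene length. The words rose and fell are kept for genes with a Benjamini-Hochberg adjusted p under 0.05 in edgeR's quasi-likelihood test over all 12862 genes, which are also termed called. By that rule 35.2% of all genes were called, 18.5% higher and 16.8% lower in KO. Of the 9 members 3 were called, 1 rising and 2 falling, which is close to that background. The CPM ranges of the genotypes did not overlap for 53.4% of all genes and for 4 of the 9 members. Itgb2 rose, Itgal and Icam1 fell, and the other 6 were not called.

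**Figure D1:**
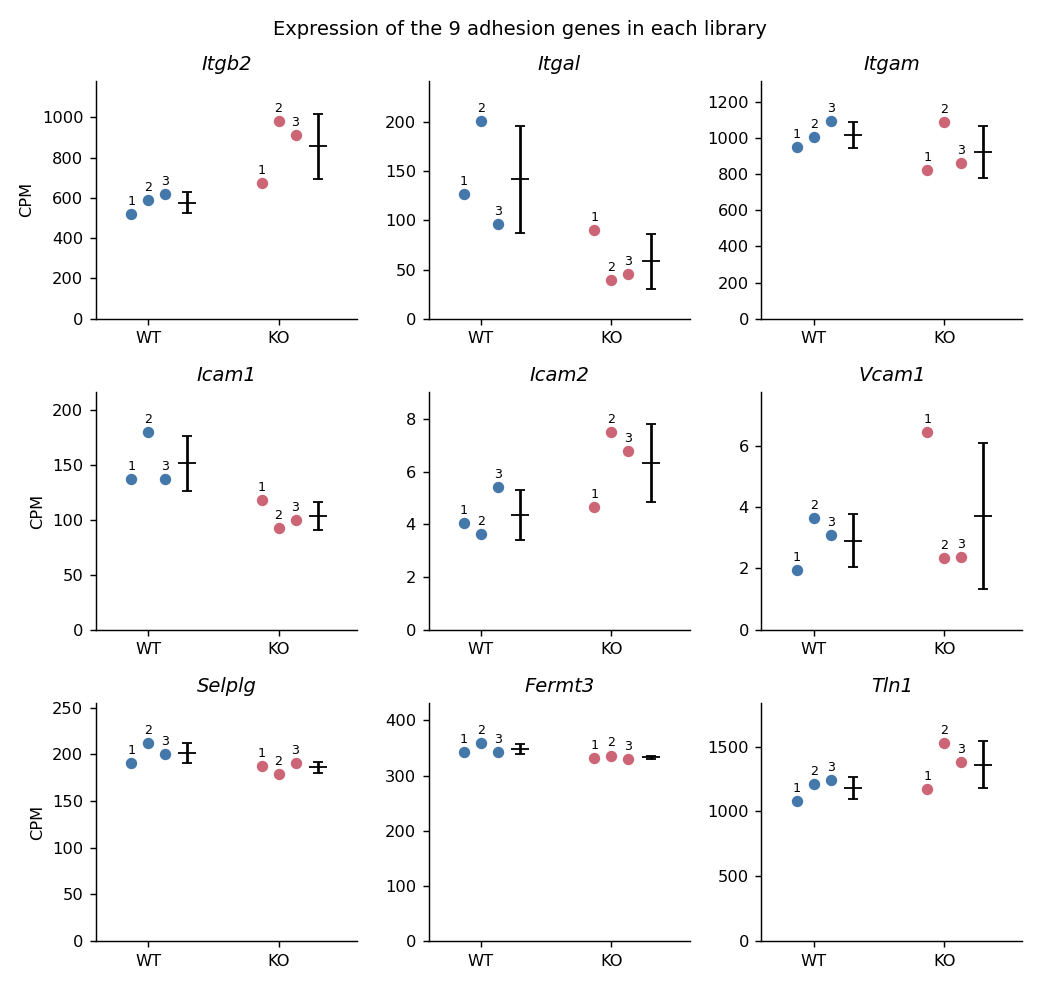
CPM (vertical axes, starting at 0) of the 9 genes in the 3 WT (blue) and 3 KO (red) libraries, numbered by replicate, with the mean and SD of each genotype in black. The KO libraries lie above all WT libraries for Itgb2 and below them for Itgal, Icam1 and Fermt3, and a single KO library stands high for Vcam1.

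Libraries held 27170943 to 37113689 counts. Cdh11 itself was near the limit of detection, with 6, 11 and 6 counts in WT and 6, 4 and 5 in KO, so its level does not check the genotype labels. All 10 macrophage markers examined were among the tested genes, and their summed level ran from 33156 to 36813 CPM in WT and from 21186 to 27792 CPM in KO, with 3 markers falling (Csf1r, Lyz2 and Cd14) and 1 rising (Cd68). Neutrophil markers summed to 133 to 223 CPM in WT and 94.1 to 199 CPM in KO, and none of the 11 tested was called. Mast cell and basophil markers, none of them tested, summed to 0 to 0.107 CPM in WT and 0.351 to 0.498 CPM in KO. Markers of T and NK cells summed to 12.1 to 18.8 CPM over all 6 libraries, most of it Cd4. Stromal markers summed to 2.42 to 5.07 CPM with Dcn and Lum at 0 counts. Eosinophil markers summed to 8.68 to 15.2 CPM in WT and 23.7 to 35.6 CPM in KO, and 2 of the 3 tested, Ccr3 and Prg2, rose. The part of these marker differences in the results was not tested. In bulk RNA, fewer cells of a type and less RNA per cell cannot be told apart. KO 1 was the KO library nearest to WT on the first principal component of the 500 most variable genes, and it was also the KO library nearest to the WT mean for 5 of the 9 members, including the 3 that were called.

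The beta chain rose. Itgb2 (ENSMUSG00000000290, GRCm38 chromosome 10, 77530252 to 77565708, plus strand) encodes CD18, without which no CD11 chain reaches the cell surface. It stood at 521, 587 and 620.4 CPM in WT 1 to WT 3 and at 672, 983 and 911 CPM in KO 1 to KO 3. Every KO library lay above every WT library, KO 1 by a small margin over WT 3. The mean went from 576 ± 50.6 to 855 ± 163 CPM (SD, n = 3 per genotype), a 1.48-fold rise (log2 fold change 0.57, SE 0.15, 95% confidence interval 0.23 to 0.92, edgeR adjusted p = 0.0243). The call did not survive dropping WT 1, WT 2, KO 2 or KO 3 (adjusted p of 0.0892, 0.0681, 0.0675 and 0.0798), while the log2 fold change stayed between 0.46 and 0.72 with any library left out.

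Itgal fell. It encodes CD11a, the alpha chain of LFA-1 (ENSMUSG00000030830, chromosome 7, 127296260 to 127335138, plus strand). WT libraries stood at 127, 202 and 96.3 CPM and KO libraries at 90.5, 39.1 and 45.2 CPM. WT 2 was the highest library and KO 2 the lowest, and WT 3 lay only just above KO 1. The mean went from 142 ± 54.2 to 58.2 ± 28.1 CPM (n = 3 per genotype), a 2.43-fold fall (log2 fold change -1.28, SE 0.40, interval -2.25 to -0.31, edgeR adjusted p = 0.0498). This is the least firm of the 3 calls. It did not survive dropping WT 1, WT 2, KO 2 or KO 3 (adjusted p of 0.0932, 0.120, 0.168 and 0.140), with plain library totals (0.0513) and without a filter on low counts (0.181). Without WT 2 and KO 2 together the log2 fold change was -0.72 (adjusted p = 0.211). The 8 monocyte markers summed to 1503.5 to 1853 CPM in WT and 575.6 to 1010.6 CPM in KO, most of it F13a1, the only marker of that list called, and their part in the Itgal result was not tested.

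Itgam, the alpha chain CD11b of Mac-1 (ENSMUSG00000030786, chromosome 7, 128062640 to 128118491, plus strand), was not called. It stood at 951, 1007 and 1097 CPM in WT and at 824, 1091 and 861 CPM in KO. The genotypes overlapped, since KO 2 lay just below the highest WT library. The log2 fold change was -0.14 with an interval of -0.41 to 0.14 (edgeR adjusted p = 0.384), and it ran from -0.27 without KO 2 (adjusted p = 0.0616) to -0.06 without KO 1. Without WT 2 and KO 2 together it was -0.28. In the GENCODE annotation 68.7% of Itgam's exon length is shared with Gm49368, a gene model on the same strand whose counts were not analysed here.

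Of the remaining CD11 chains, both outside the 9 members, Itgax rose. Itgax, the chain CD11c, went from 34.05, 61.4 and 60.2 CPM in WT to 98.8, 243 and 186 CPM in KO (log2 fold change 1.76, SE 0.38, edgeR adjusted p = 0.0165). Its call was lost without WT 1, KO 2 or KO 3 (adjusted p of 0.0509, 0.0605 and 0.0520), without WT 2 and KO 2 together (0.0618) and without a filter on low counts (0.0771). Itgad, the chain CD11d, was scarce in every library, with 7, 5 and 4 counts in WT and 14, 17 and 15 in KO. It passed the filter on low counts only through its KO libraries, so its difference is given as a description (log2 fold change 1.58, SE 0.33). Itgam, Itgax and Itgad lie next to each other in that order on chromosome 7, with Itgax starting 11.1 kb after the end of Itgam. Itgal lies apart on the same chromosome.

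**Figure D2:**
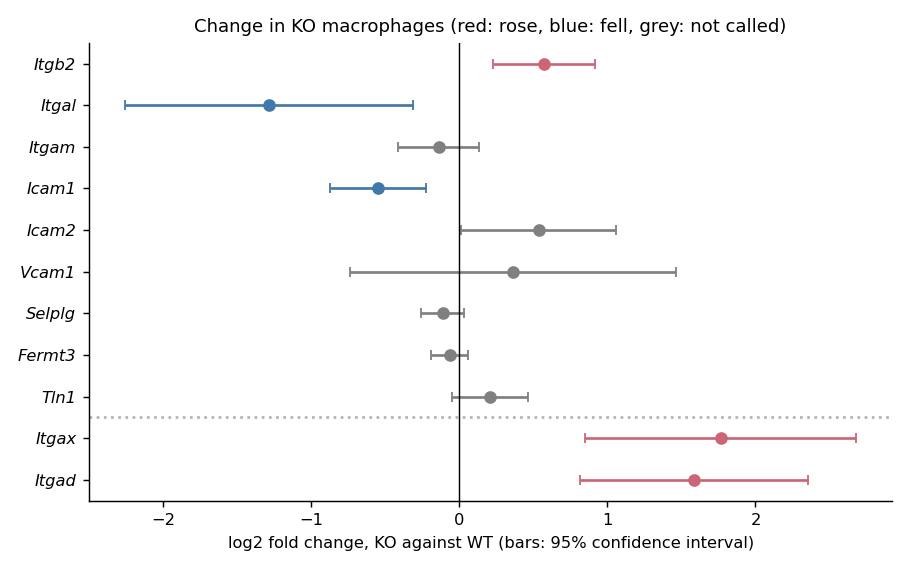
Log2 fold change of KO against WT (horizontal axis) with its 95% confidence interval for the 9 members and, below the dotted line, for Itgax and Itgad. Intervals of Itgb2, Itgal, Icam1 and Itgax lie clear of 0, as does that of Itgad, which is given as a description only. That of Icam2, which was not called, lies just above 0. Those of Itgam, Vcam1, Selplg, Fermt3 and Tln1 span 0, and among these they are narrowest for Fermt3 and Selplg and widest for Vcam1.

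Because all CD11 chains pair with the same CD18, their levels were also set against each other as TPM. In WT, Itgam (601 ± 45.9 TPM) and Itgb2 (559.7 ± 48.9 TPM) stood at the top of the 9 members with overlapping ranges. Tln1 followed at 356 ± 24.9 TPM, then Fermt3 at 178 ± 2.41, Selplg at 139.5 ± 5.71, Icam1 at 103 ± 15.3 and Itgal at 63.8 ± 23.4 TPM, with no overlap between neighbours in this order. Icam2 and Vcam1 were far lower, at 6.802 ± 1.53 and 0.9698 ± 0.2804 TPM. In KO the order was the same except at the top, where Itgb2 (820.2 ± 153 TPM) stood above Itgam (539 ± 84.4 TPM), with all KO libraries of Itgb2 above all KO libraries of Itgam. Itgam shares 68.7% of its exon length with Gm49368, and how shared reads were counted is not given in the sources used here. Its TPM, and the places, shares and ratios built on it, may therefore be off.

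Itgam made up most of the CD11 transcripts in every library. Its share of the summed TPM of Itgal, Itgam, Itgax and Itgad was 87.7, 82.2 and 88.9% in WT and 82.6, 79.3 and 78.97% in KO. The share of Itgax was 3.29, 5.24 and 5.101% in WT and 10.4, 18.5 and 17.8% in KO, without overlap. The share of Itgal was 8.98, 12.6 and 5.97% in WT and 6.94, 2.17 and 3.17% in KO, and here WT 3 lay below KO 1. Two-sided exact permutation tests gave p = 0.1 for Itgax and p = 0.2 for Itgal and for Itgam, where 0.1 is the smallest value that 3 against 3 libraries allow. In WT, Itgal was thus the second alpha chain by transcript, above Itgax in each library (0.366, 0.417 and 0.855 Itgax per Itgal), and in KO it was the third, with ratios of 1.49, 8.51 and 5.62.

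Within each genotype the summed alpha chains ranked the libraries as Itgb2 did, but between genotypes they showed no matching rise. They came to 645, 712 and 734 TPM in WT and 585, 803 and 630.4 TPM in KO, with overlapping ranges (two-sided exact permutation p = 0.8). Itgb2 stood at 510.2, 561 and 608 TPM in WT and at 649.7, 944 and 867 TPM in KO. The ratio of summed alpha chains to Itgb2 was therefore 1.26, 1.27 and 1.21 in WT and 0.901, 0.84997 and 0.728 in KO, without overlap. The difference was -0.60 on the log2 scale (two-sided exact permutation p = 0.1, the smallest possible), and ran from -0.51 to -0.66 with any library left out. It holds the rise of Itgb2 already given and is not a separate finding on that gene. These are transcript ratios, and CD18 protein was not measured. Their level rests on Itgam's TPM, with the limit given above for exons shared with Gm49368.

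**Figure D3:**
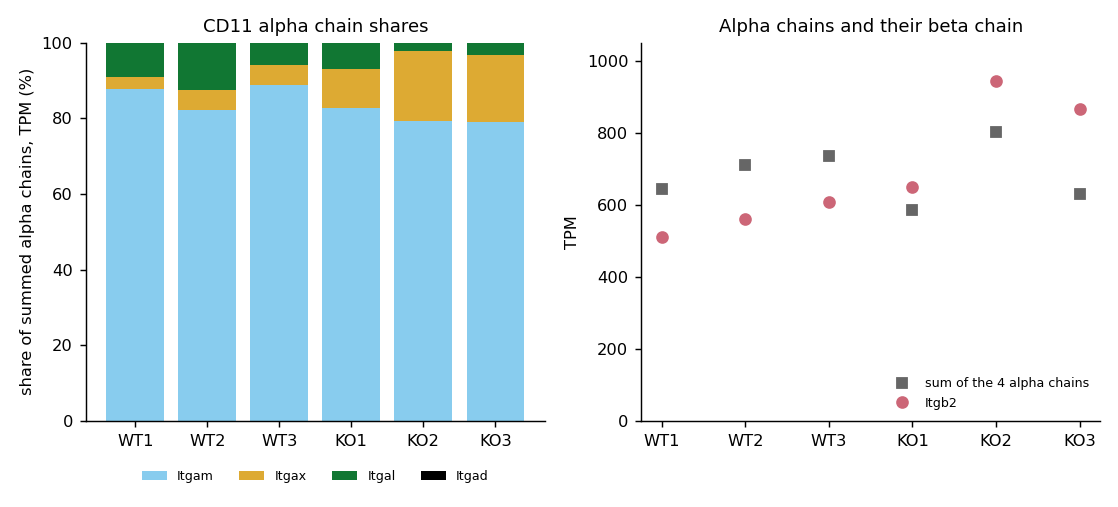
Left, share of each CD11 alpha chain in their summed TPM (stacked, in %) in each library; right, summed TPM of the 4 alpha chains (grey squares) and TPM of Itgb2 (red circles). The Itgax share is 10.4 to 18.5% in KO against 3.29 to 5.24% in WT, and Itgb2 lies below the alpha chain sum in each WT library and above it in each KO library. Both panels rest on the TPM of Itgam, whose exons overlap those of Gm49368.

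Among the ligands, Icam1 fell. ICAM-1 is the main ligand of LFA-1 and also binds Mac-1, and its gene is a textbook target of NF-kB and interferon signalling (ENSMUSG00000037405, chromosome 9, 21015985 to 21028817, plus strand). WT libraries stood at 137, 179.98 and 137 CPM and KO libraries at 118, 92.7 and 100.01 CPM. All KO libraries lay below all WT libraries, and WT 2 stood above the other 2 WT libraries, as it did for Itgal. The mean went from 151 ± 24.8 to 104 ± 12.97 CPM (n = 3 per genotype), a 1.46-fold fall (log2 fold change -0.55, SE 0.14, interval -0.87 to -0.22, edgeR adjusted p = 0.0226). The call was lost without KO 2 (adjusted p = 0.0730) or KO 3 (0.0780), and without WT 2 and KO 2 together the log2 fold change was -0.33 (0.0730). An antisense model, Gm47079, covers 11.7% of its exon length, and whether counting used the strand is not given in the sources used here.

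Icam2, a ligand best known from endothelium and platelets (ENSMUSG00000001029, chromosome 11, 106377656 to 106388075, minus strand), was low and not called. It stood at 4.04, 3.62 and 5.41 CPM in WT and at 4.67, 7.52 and 6.78 CPM in KO, with KO 1 inside the WT range. The log2 fold change was 0.54 (interval 0.01 to 1.06, unadjusted p = 0.0457 and adjusted p = 0.0976 in edgeR). Without KO 1 it was 0.71 and passed (adjusted p = 0.0223). It was 0.32 with limma on the authors' signal (adjusted p = 0.351) and 0.28 without WT 2 and KO 2 together.

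Vcam1 encodes the ligand of the alpha-4 integrins (ENSMUSG00000027962, chromosome 3, 116109949 to 116129688, minus strand). It was the scarcest member, with 73, 97 and 90 counts in WT and 184, 68 and 71 in KO. This is 1.96, 3.66 and 3.103 CPM in WT and 6.46, 2.33 and 2.36 CPM in KO. KO 1 alone stood high, and the other 2 KO libraries lay inside the WT range. The log2 fold change was 0.36 (SE 0.46, edgeR adjusted p = 0.566), and it changed sign to -0.30 without KO 1 (adjusted p = 0.426). No direction can be given for Vcam1.

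Promoter windows from RefSeq (GRCm38.p6, 250 bases before to 50 after the annotated start) were found for 4 of the 9 members, Itgam, Icam1, Fermt3 and Tln1, and for Itgax. Those of Icam1, the called ligand, and of the neighbours Itgam and Itgax, which differ in their change, are shown because the results turn on these genes. Each is on the gene's own strand, 5′ to 3′, at chr9:21015690-21015989, chr7:128062390-128062689 and chr7:128129300-128129599. Capitals mark matches to the motifs searched on both strands: the PU.1 core GAGGAA, the Ets core GGAAGT, the NF-kB consensus, the core GAAANNGAA of interferon-stimulated elements, and the NF-kB variant GGAAATTCC, which was added after the Icam1 sequence was seen.
Icam1: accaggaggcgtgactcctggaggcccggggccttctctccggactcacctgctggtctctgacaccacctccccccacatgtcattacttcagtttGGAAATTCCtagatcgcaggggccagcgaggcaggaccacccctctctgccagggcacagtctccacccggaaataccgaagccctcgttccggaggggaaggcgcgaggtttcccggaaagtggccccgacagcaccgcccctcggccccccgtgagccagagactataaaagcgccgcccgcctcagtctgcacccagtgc
Itgam: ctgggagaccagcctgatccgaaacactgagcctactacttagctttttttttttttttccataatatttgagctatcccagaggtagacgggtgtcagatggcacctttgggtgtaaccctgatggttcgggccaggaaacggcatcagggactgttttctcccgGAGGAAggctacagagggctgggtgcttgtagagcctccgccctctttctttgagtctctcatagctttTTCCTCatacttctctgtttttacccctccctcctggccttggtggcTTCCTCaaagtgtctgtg
Itgax: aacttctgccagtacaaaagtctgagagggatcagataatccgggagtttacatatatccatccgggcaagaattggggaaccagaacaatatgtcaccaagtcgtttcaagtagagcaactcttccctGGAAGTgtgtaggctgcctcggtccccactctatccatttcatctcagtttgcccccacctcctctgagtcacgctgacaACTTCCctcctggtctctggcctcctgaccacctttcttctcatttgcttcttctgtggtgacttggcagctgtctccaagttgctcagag

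The Icam1 window held the NF-kB variant once, from 153 to 145 bases before the start. Because the variant was chosen after this sequence was seen, its match was fixed in advance. Its share of the 32841 windows in the RefSeq set, 0.317%, therefore gives the match no weight. The NF-kB consensus, listed beforehand, was in 4.51% of those windows and in none of the 5. GENCODE places the Icam1 start 45 bases further downstream. The Itgam window held the PU.1 core 3 times, a motif in 28.3% of all windows, and the Itgax window held none of it but 2 Ets cores, found in 23.8%. Tln1 had 1 PU.1 core and 2 Ets cores, Fermt3 had no match, and the interferon core (8.56% of windows) was in none of the 5. These are letter matches and say nothing about binding in these cells.

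Selplg encodes PSGL-1, the leukocyte ligand through which cells roll on P-, E- and L-selectin (ENSMUSG00000048163, chromosome 5, 113818536 to 113832644, minus strand). It stood at 191, 212 and 200.2 CPM in WT and at 187, 179 and 191 CPM in KO. KO 3 reached the level of WT 1, so the genotypes overlapped by a small margin. The log2 fold change was -0.11 with an interval of -0.26 to 0.03 (edgeR adjusted p = 0.189).

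Neither activator that binds the CD18 tail was called. Fermt3 encodes kindlin-3, the kindlin of blood cells, whose loss causes leukocyte adhesion deficiency (ENSMUSG00000024965, chromosome 19, 6998958 to 7019469, minus strand). It stood at 342, 359 and 343 CPM in WT and at 332, 336 and 330.4 CPM in KO. The groups did not overlap, yet the gap was small, and the gene was not called (log2 fold change -0.06, interval -0.19 to 0.06, edgeR adjusted p = 0.373). Tln1 encodes talin-1, which links the integrin tail to actin (ENSMUSG00000028465, chromosome 4, 43531519 to 43562691, minus strand). It stood at 1081, 1207 and 1243 CPM in WT and at 1169, 1528 and 1381 CPM in KO, with KO 1 inside the WT range (log2 fold change 0.21, interval -0.05 to 0.46, adjusted p = 0.173). Without KO 1 it was 0.30 and passed (adjusted p = 0.0310), and without KO 2 it was 0.12 (adjusted p = 0.446). The kindlin paralogs Fermt1 and Fermt2 were at or near 0 CPM in all libraries, and the talin paralog Tln2 was low at 0.782 ± 0.231 and 0.9099 ± 0.187 CPM.

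**Figure D4:**
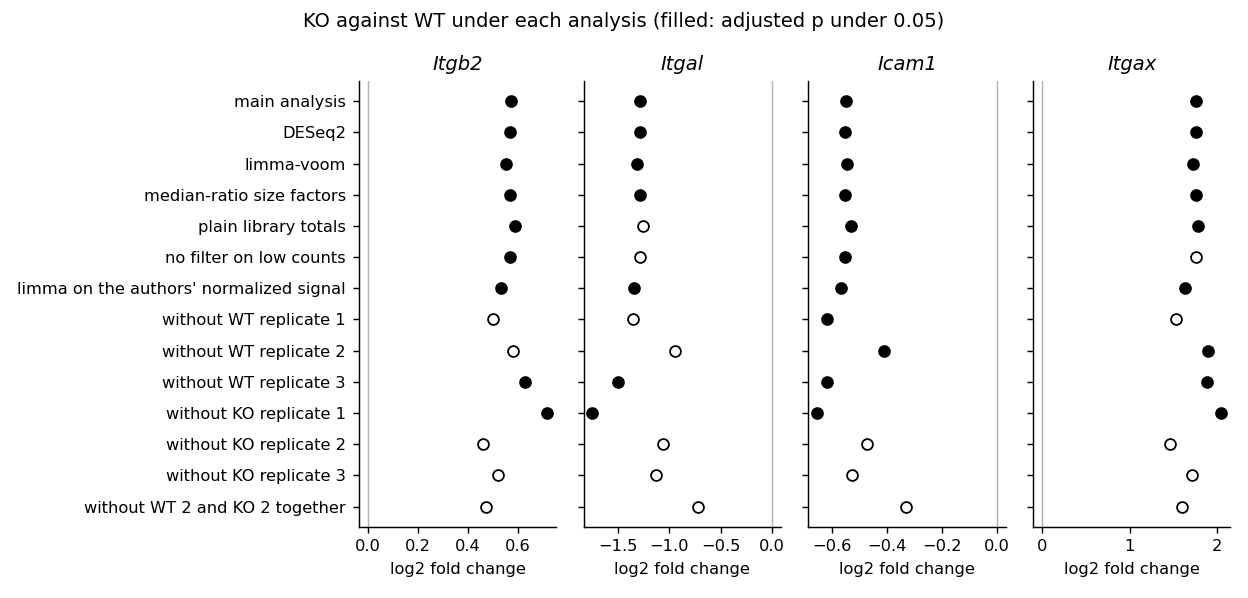
Log2 fold change (horizontal axes, a scale of its own for each gene) of Itgb2, Itgal, Icam1 and Itgax in the main analysis and under each alternative (rows), filled where the adjusted p was under 0.05. All 4 genes keep their direction in every row, and all 4 lose their call without KO 2 or KO 3 and without WT 2 and KO 2 together.

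For each called member, the 3 genes with the nearest profile were taken by the root-mean-square distance between centred log2 CPM over the 6 libraries, among genes whose log2 CPM averaged 1 or more. For Itgb2 these were Actn4, an actin crosslinker found in adhesion sites (distance 0.0289), Pik3cb, a phosphoinositide 3-kinase (0.0390), and Gsdme, a pore-forming gasdermin (0.0486). Actn4 stood at 243, 257 and 287 CPM in WT and at 310.1, 452 and 415 CPM in KO, in the same order of libraries as Itgb2. For Itgal they were Ifi202b, an interferon-inducible gene (0.0959), Lpcat2, a lysophospholipid acyltransferase (0.105), and Cx3cr1, the fractalkine receptor (0.122). Cx3cr1 stood at 154, 229 and 137 CPM in WT and at 115, 42.8 and 57.1 CPM in KO (adjusted p = 0.0477, lost with any 1 library dropped except KO 1), with the high WT 2 and the low KO 2 also seen for Itgal, whereas Ifi202b was not called (adjusted p = 0.0896). For Icam1 they were Themis2 (0.0477), Dock4 (0.0491) and Samhd1 (0.0504), each highest in WT 2 and lowest in KO 2. All these genes were picked for their likeness to the member, so a shared pattern over the libraries follows from the choice.

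Partners of the 9 members were read from 10 lists of 150 genes. Of the 4 chains that make receptors for VCAM-1, 25% were called against 35.2% of all genes. The only called chain was Itga4, the alpha-4 chain, which fell (log2 fold change -0.77, SE 0.12, edgeR adjusted p = 0.00707). Itgb1, its usual beta chain, stood at 528 ± 18.3 and 602 ± 35.6 CPM (adjusted p = 0.0638). The Itga4 call held with any library left out, and without KO 1 the list showed 1 rise and 2 falls.

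Among 22 tested genes of inside-out activation, the signalling that switches integrins on, 1 rose and 7 fell, so 36.4% were called against 35.2% of all genes, with a median log2 fold change of -0.07 (0.00 over all genes). Rasgrp4, an activator of Ras-family GTPases, fell from 24.01 ± 1.68 to 11.5 ± 0.864 CPM. Rassf5, known as RAPL, which carries Rap1 signals to LFA-1, went down from 66.3 ± 0.663 to 42.9 ± 4.13 CPM (log2 fold change -0.63, SE 0.08, adjusted p = 0.00496). Stk4, the kinase MST1 that works with RAPL, also fell (log2 fold change -0.29), as did Sipa1, a GTPase-activating protein that turns Rap1 off (-0.39, adjusted p = 0.00825). Flna, filamin A, which competes with talin for integrin tails, rose from 915 ± 131 to 1688 ± 302 CPM. Rap1a and Rap1b, the GTPases themselves, were not called (log2 fold changes 0.00 and -0.08), nor was Apbb1ip, the adaptor RIAM that brings talin to Rap1 (0.20, adjusted p = 0.0907). The 7 falls became 4 without WT 1 or KO 2, and the calls of Rasgrp4, Rassf5 and Flna held with any library left out.

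In the adhesion complex downstream of talin 4 of 21 tested genes rose and 3 fell (33.3% called against 35.2% of all genes). The rises included Ptk2, focal adhesion kinase, from 3.52 ± 0.761 to 9.99 ± 3.79 CPM, and Actn1, alpha-actinin-1, from 183 ± 20.1 to 319 ± 65.6 CPM. Kank2, a talin-binding protein, fell from 61.4 ± 2.97 to 34.1 ± 1.97 CPM. Vcl, vinculin, stood at 34.2 ± 3.09 and 54.9 ± 17.1 CPM and was not called (adjusted p = 0.0552). The 4 rises became 0 without WT 1 (4 with edgeR p under 0.05 before adjustment) and 2 without KO 3, and the calls of Ptk2 and Actn1 were both lost without WT 1.

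Downstream signalling from engaged beta-2 integrins showed 1 rise and 6 falls among 27 genes (25.9% called against 35.2% of all genes, median -0.11). Src, a tyrosine kinase, rose from 4.91 ± 0.334 to 11.7 ± 2.74 CPM. Lyn, another kinase of the Src family, fell from 379 ± 36.6 to 262 ± 38.9 CPM, while Fgr was not called (adjusted p = 0.0638). Pik3cg, a phosphoinositide 3-kinase of leukocytes, fell from 233 ± 11.8 to 126 ± 16.6 CPM, and Lcp2, the adaptor SLP-76, fell from 149 ± 19.6 to 90.1 ± 16.02 CPM; dropping WT 1 or KO 3 ended that call. The kinase Syk and its adaptors Tyrobp and Fcer1g were not called (log2 fold changes -0.06, 0.13 and -0.12). The 6 falls became 3 if WT 1, WT 2 or KO 3 was dropped, and the single rise became 2 if WT 2 or KO 1 was dropped.

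Selectins and the enzymes that decorate PSGL-1 went both ways, 4 of 18 rising and 4 falling (44.4% called against 35.2% of all genes). The rises include Selp, which passed the filter on low counts only through its KO libraries and is given as a description. Slc35c1, the Golgi transporter of GDP-fucose whose loss in people causes another leukocyte adhesion deficiency, fell from 51.3 ± 3.12 to 39.3 ± 0.0636 CPM. B4galt1, a galactosyltransferase, fell from 158 ± 5.22 to 110.5 ± 9.16 CPM, and Gcnt1, which builds the core-2 branch that selectins need, fell by 0.24 on the log2 scale. Fut7, the fucosyltransferase that completes the ligand, was not called (5.02 ± 0.636 and 4.92 ± 0.315 CPM). Selp, P-selectin, went from 8, 1 and 2 counts in WT to 23, 41 and 31 in KO, and 5 of the 6 tested platelet and megakaryocyte markers were called higher, 3 of them having passed that filter only through KO. The 9 listed markers summed to 168 to 243 CPM in WT and 179 to 283 CPM in KO, most of it Pf4, which was not called, and their part in the Selp result was not tested. Cd24a, a P-selectin ligand, rose from 4.58 ± 1.09 to 9.87 ± 0.611 CPM, and St3gal6, a sialyltransferase, rose by 0.70 on the log2 scale, a call lost without any 1 library except KO 3. Dropping WT 1, WT 2 or KO 2 left 2 rises, and dropping WT 1, WT 2, WT 3 or KO 3 left 2 falls.

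Among other adhesion ligands 7 of 13 were tested, and 28.6% of these were called against 35.2% of all genes. Alcam, a ligand of CD6, rose (log2 fold change 0.70) and Cd47, an integrin-associated protein, fell (-0.34). Both calls were lost if WT 1, WT 2, KO 2 or KO 3 was dropped. Icam4 and Icam5, which follow Icam1 on chromosome 9, were at or below 0.396 CPM on average. Of 9 tested cytoplasmic partners of the ICAMs and PSGL-1, 22.2% were called against the same 35.2%. Cttn, cortactin, rose from 0.553 ± 0.0809 to 2.68 ± 1.19 CPM. Snx20, a sorting nexin that binds PSGL-1, fell by 0.39 on the log2 scale, a call lost without WT 2 or KO 2. The linkers Ezr, Rdx and Msn, which tie these tails to actin, were not called (log2 fold changes 0.13, -0.01 and 0.03).

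Gene groups tied to the control of Icam1 and of the CD11 and CD18 genes were read beside them. Of 17 NF-kB subunits and feedback genes 3 fell and 1 rose (23.5% called against 35.2% of all genes, median -0.24). Nfkbia and Birc3, classical NF-kB targets, fell by 0.52 and 0.60 on the log2 scale and Nfkb1 by 0.36. They are named as the called genes with the largest changes, while log2 fold changes over the list ran from -0.60 to 0.53. The 3 falls became 9 without KO 1, and no gene of this list was called if WT 1, WT 2, KO 2 or KO 3 was dropped (with edgeR p under 0.05 before adjustment, 8, 3, 4 and 6 were lower and 1 higher each time). Of 10 transcription factors known from the CD11 and CD18 promoters 4 fell and 0 rose (40.0% called, median -0.28; edgeR p before adjustment, DESeq2 and limma-voom also gave 0 rises). Irf1, which interferon induces, stood at 119.6, 170.1 and 112 CPM in WT and at 92.04, 71.3 and 78.1 CPM in KO, with WT 2 high and KO 2 low as for Icam1, and its call was lost without KO 2 or KO 3. Irf8 fell by 0.30 on the log2 scale, a call lost if WT 1, WT 2, KO 2 or KO 3 was dropped, and Sp3 fell by 0.31, a call kept with any library dropped. Spi1, the master myeloid factor PU.1, was not called (372 ± 22.3 and 375 ± 14.7 CPM, log2 fold change 0.01, adjusted p = 0.929). The 4 falls became 7 without KO 1. Dropping WT 1 or WT 2 left 2 falls, and dropping KO 2 or KO 3 left a single called fall.

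**Figure D5:**
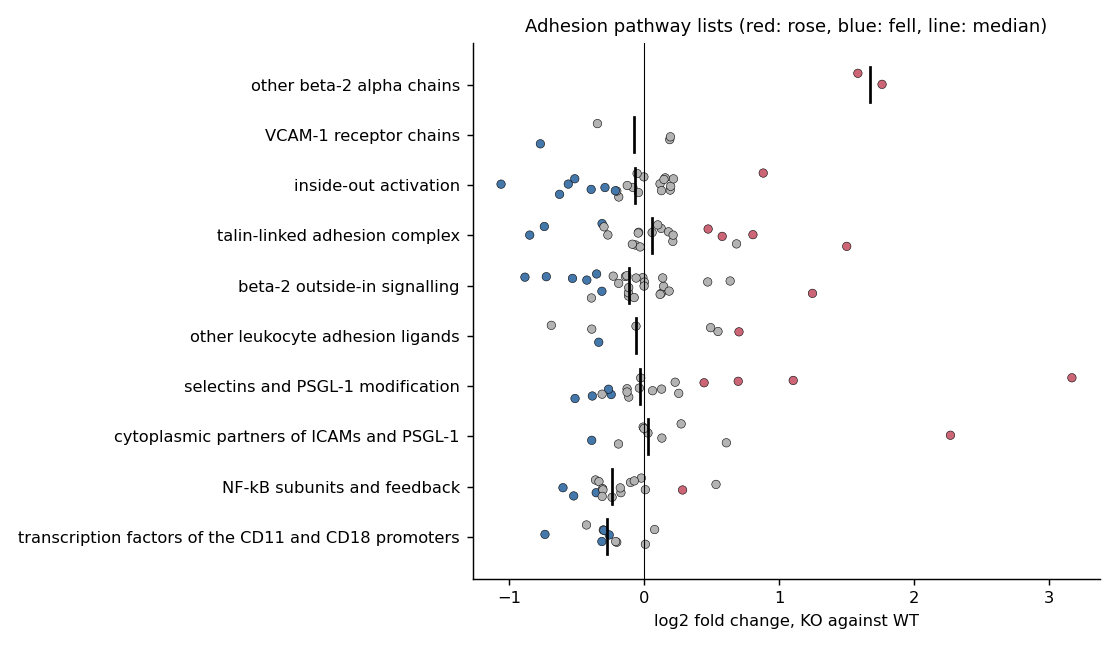
Log2 fold change of KO against WT (horizontal axis) of each tested gene in the 10 lists (rows, spread vertically for view), red where it rose, blue where it fell, grey where it was not called, with the list median as a line. Most medians lie near 0. That of the 2 other beta-2 alpha chains is 1.67, where Itgad passed the filter on low counts only through its KO libraries. The medians of the NF-kB and promoter factor lists are -0.24 and -0.28.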

How the data were processed

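Groups come from the genotype labels, and replicates are numbered in accession order. The authors deposited whole-number counts per gene and a normalized signal. The submitters' processing notes list DRAGEN, DESeq2 and mm10; roles, versions, annotation and strand setting: not given in the sources used here. Per the labels' protocols the library kit keeps strand. All 42256 gene IDs matched GENCODE M21 (GRCm38), the source of symbols, coordinates and exon-union lengths for TPM.

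Counts were tested in edgeR 4.0.16 (R 4.3.3) after filterByExpr (minimum count 10) and TMM scaling, with the robust quasi-likelihood test without covariates, across all 12862 genes. P-values are two-sided. Intervals use the test's standard error. Promoter windows came from RefSeq (GRCm38.p6). Replicate libraries differed beyond sampling noise (chi-square per degree of freedom 12.6 to 52.5). The test was tried on simulated data. Alternatives were DESeq2 1.42.0, limma-voom 3.58.1, other scalings, no filter, limma on log2 of the signal plus 1, and leaving libraries out.

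The members, lists and tests were chosen with earlier results of these data known. Named genes are all members, Itgax, Itgad, Cdh11, up to 3 called genes per list by largest change, and 3 nearest profiles per called member; others (Stk4, Sipa1, Gcnt1, B4galt1, Slc35c1, Lyn, genes not called and markers) were chosen after their values were seen.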

Additional observations from a re-analysis of the deposited data

How the results depend on the processing

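Directions of the 9 members and of Itgax were the same as in the main analysis under all 13 alternatives, except that Vcam1 changed sign without KO 1 (log2 fold change -0.30, the lowest with any library left out, where the highest was 0.61). The number of genes called was 4532, ran from 1979 to 5456 with any library left out, and was 1378 without WT 2 and KO 2 together. The number of members called was 3, ran from 0 (without KO 2 or KO 3) to 5 (without KO 1), and was 0 without WT 2 and KO 2 together; at an unadjusted p under 0.05 in edgeR, 3 members passed without KO 2, 2 without KO 3 and 3 without both WT 2 and KO 2. With fewer libraries the test has less power. DESeq2, limma-voom, median-ratio size factors and limma on the authors' signal each called the same number of members, 3; plain totals and no filter called 2, without Itgal. With any library left out, the difference in the Itgal share ran from -6.69 to -3.38 percentage points and that in the log2 ratio of alpha chains to Itgb2 from -0.66 to -0.51. No paired analysis was possible because the labels give the genotypes no shared replicate numbers. Vcam1 and Icam2 had the fewest counts of the members, 68 to 219 per library. Their log2 fold changes had SEs of 0.46 and 0.22, while that of Itgal, with 1138 to 5343 counts, had 0.40. The part of depth in this precision was not tested.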
